A study of Mus musculus with 36 samples.

Results

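The 10 genes described here encode the core of the mouse microRNA and small interfering RNA machinery: Drosha, Dgcr8, Xpo5, Dicer1, Tarbp2, Prkra, Ago1, Ago2, Ago3 and Ago4. They were chosen by name, and all 10 were found among the 21968 genes of the deposited count table. The table covers 36 single mouse oocytes at the germinal vesicle stage, the fully grown oocyte arrested in the first meiotic prophase, each sequenced as a SMART-seq library. Under the genotype label Drp1_KO there are 4 mice, lettered a to d, and 18 oocytes; under Drp1_WT there are 5 mice, numbered 1 to 5, and again 18 oocytes, each mouse giving 3 to 5. Drp1, encoded by Dnm1l, is the GTPase that divides mitochondria. Strain, age, treatment and the way in which Drp1 was removed, including the promoter of any Cre, are left unstated by the labels. Small RNAs themselves were not measured: the table holds 0 microRNA genes, and the values below are those of the messenger RNAs of the pathway.

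In the microRNA pathway, the nuclease Drosha and its RNA-binding partner Dgcr8 cut a hairpin out of the primary transcript in the nucleus, Exportin-5 (Xpo5) carries it to the cytoplasm, and Dicer1, with the double-stranded RNA binding proteins Tarbp2 or Prkra, cuts it to its mature length. Dicer1 also cuts long double-stranded RNA into small interfering RNAs and does so without Drosha and Dgcr8. The short RNA is then held by an Argonaute protein, and among the mouse Argonautes Ago2 is the one best known for cutting its target. Mouse oocytes are known for endogenous small interfering RNAs, some of them made from pseudogenes, and for an oocyte form of Dicer1 that starts at a retrotransposon promoter inside the gene. Counts per gene do not separate that form from the full-length one.

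The sequence shown here bears on how far reads of the Argonautes can be told apart. In the GENCODE M21 annotation of the GRCm38 build, Ago3, Ago1 and Ago4 lie one after another on the minus strand of chromosome 4, with 5455 bases between Ago3 and Ago1 and 20957 bases between Ago1 and Ago4, whereas Ago2 lies on chromosome 15. Over their whole coding sequences the 4 Argonautes are 71.6% to 75.5% identical in pairs. Inside 1 coding exon of 185 bases, however, Ago1 (chr4:126448778-126448947) and Ago3 (chr4:126363657-126363826) share an exact run of 170 bases. The corresponding 170 bases of Ago2 (chr15:73121075-73121244) differ from that run at 30 positions, and those of Ago4 (chr4:126509962-126510131) differ from Ago2 at 38. All are coding, on the minus strand, and are written 5′ to 3′ with capitals marking each base that is not the base of Ago2.
Ago2: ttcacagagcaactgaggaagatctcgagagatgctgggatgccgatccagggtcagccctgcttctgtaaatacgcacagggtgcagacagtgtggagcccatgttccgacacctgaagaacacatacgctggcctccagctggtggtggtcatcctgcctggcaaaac
Ago1: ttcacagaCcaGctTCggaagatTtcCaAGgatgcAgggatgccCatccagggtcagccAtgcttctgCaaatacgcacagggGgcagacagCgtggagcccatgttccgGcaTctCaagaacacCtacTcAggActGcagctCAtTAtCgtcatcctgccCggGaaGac
Ago3: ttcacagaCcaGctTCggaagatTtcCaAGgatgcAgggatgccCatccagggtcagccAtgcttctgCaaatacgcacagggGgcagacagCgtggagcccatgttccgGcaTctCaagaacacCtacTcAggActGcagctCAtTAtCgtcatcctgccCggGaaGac
Ago4: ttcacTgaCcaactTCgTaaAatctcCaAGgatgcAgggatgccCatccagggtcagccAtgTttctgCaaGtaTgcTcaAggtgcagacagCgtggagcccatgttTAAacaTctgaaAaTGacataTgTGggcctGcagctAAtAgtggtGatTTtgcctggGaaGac
The Ago1 and Ago3 lines are the same in every letter, so a 100-base read from inside this run matches both genes. Of the 100-base windows of each gene's transcript, 71 of 7128 (0.996%) in Ago1 and 71 of 15496 (0.458%) in Ago3 were shared in this way, and none was shared between other members. Sharing with genes outside the pathway was larger for a pair of members. Tarbp2 shared 36.7% of its 100-base windows with the processed pseudogene Gm18584, which is not among the genes of the table. Dgcr8 shared 22.6% of its windows with other annotated genes, mostly Trmt2a, which lies on the opposite strand and overlaps it. Ago2 shared 0.978%, mostly with its neighbour Chrac1 on the opposite strand, and Dicer1, Drosha, Xpo5, Prkra and Ago4 shared none. The kit keeps no strand, and the treatment of reads with several matches is not stated in the labels or notes, so the values of Ago1, Tarbp2 and Dgcr8 are uncertain. For Ago1 the shared share is small by length but not by level: 0.458% of the mean Ago3 level is 0.433 CPM under Drp1_KO and 0.443 CPM under Drp1_WT, above the whole mean of Ago1 (0.229 and 0.156 CPM), so counts of Ago1 cannot be told apart from reads of Ago3.

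Totals ran from 3178509 to 7406895 counts per oocyte, and 11350 to 14659 genes were detected. Summed oocyte markers such as Zp3, Gdf9 and Bmp15 reached 21560 to 35030 CPM (counts scaled to a common library total) in 35 oocytes, and of 16 granulosa and cumulus markers Foxl2, Amh, Amhr2 and Ptx3 stayed under 1 CPM in all 36 while Cyp19a1 (41.2 to 86.2 CPM) and Nr5a2 (21.8 to 51.7 CPM) were present in every one. Fshr, Inha, Cyp11a1 and Hsd3b1 reached 24.0 to 27.1 CPM in their highest oocytes. Dnm1l was present under both labels, averaging 207 ± 15.9 CPM (SD, n = 4) for Drp1_KO mice, and for Drp1_WT mice 239 ± 69.2 CPM (SD, n = 5). Its log2 difference of -0.21 (SE 0.19) did not pass the edgeR quasi-likelihood test (adjusted p = 0.706). A count over the whole gene does not see the loss of single exons, so the labels could not be checked by it. The libraries labelled WT tubes 11 to 15 had less Dnm1l (116 to 156 CPM) than the other WT libraries (234.5 to 322.5 CPM), and all but 1 of the libraries labelled Drp1_KO (144 to 274 CPM, median 204) were above them, so in these libraries Dnm1l went against the label. They are tubes 11 and 12 of mouse 3 (134 and 116 CPM) and all oocytes of mouse 4, tubes 13 to 15. Tubes 7, 8 and 10 of mouse 3 had 254.5 to 286 CPM, so the step in Dnm1l ran through the oocytes of 1 mouse. Leaving out WT tubes 11 to 15 also removes mouse 4 entirely. The log2 difference of Dnm1l was then -0.47 (SE 0.11, adjusted p = 0.519 in edgeR) and that of Ago2 -0.42. The library labelled KO tube 10, from mouse b, stood apart: its oocyte markers summed to 4413 CPM and its 7 immune markers to 548 CPM, against 2.45 to 9.26 CPM elsewhere. All oocytes of mice d and 5, and no others, carry tube numbers from 27 to 30. Nothing in the labels says whether oocytes of a label came from separate litters or days. The index numbers that end the sample titles run from 42 to 59 under Drp1_WT and from 60 to 77 under Drp1_KO. What they mark is not stated, and whatever follows them cannot be told apart from the label.

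The members ranged from one of the more abundant messages to one barely detected. Levels of different genes are compared here as CPM per kilobase of exon, averaged over the 9 mice. Dicer1 was highest at 19.0 ± 1.59 CPM per kb (SD, n = 9), above 85.7% of the 18385 genes with counts and an annotated length. Tarbp2 followed at 12.8 ± 2.42 and Drosha at 10.6 ± 1.12 CPM per kb. Ago3 (5.78 ± 0.54), Ago2 (5.52 ± 1.39) and Xpo5 (4.22 ± 0.61 CPM per kb) formed the middle of the order. Prkra, at 1.19 ± 0.30, and Dgcr8, at 0.667 ± 0.082 CPM per kb, were lower still. Ago4 reached 0.166 ± 0.050 CPM per kb and Ago1 0.023 ± 0.016 CPM per kb, the latter above 18.0% of genes only. The paired proteins of the pathway were therefore unequal in message: the mean per kb of Drosha, the nuclease, was above that of Dgcr8, its partner, and that of Tarbp2 above that of Prkra.

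Not all neighbours in this order were separated by more than their spread. Dicer1 was above Tarbp2 in 9 of 9 mice and in 35 of 36 oocytes, and Drosha was above Ago3 in 36 of 36 oocytes. Tarbp2 was above Drosha in 25 of 36 oocytes. Ago3 was above Ago2 in 4 of 9 mice, so these Argonautes could not be ordered. Ago2 was above Xpo5 in 6 of 9 mice, and with the length of the longest transcript in place of all exons Xpo5 came first, at 5.70 against 5.61 CPM per kb. The gaps from Xpo5 to Prkra, from Dgcr8 to Ago4 and from Ago4 to Ago1 left no overlap between mice. A longest transcript of 9851 bases in place of 16750 bases of exons raised Dicer1 to 32.4 CPM per kb without changing its place.

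**Figure D1:**
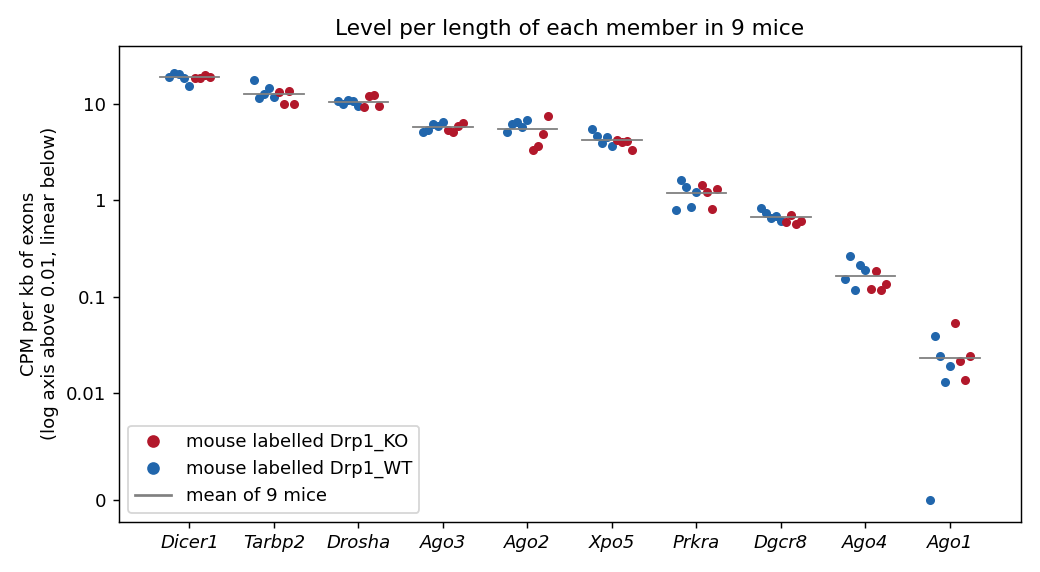
Level of each member per kilobase of exon in the 9 mice, on an axis that is logarithmic above 0.01 and linear below it; each point is 1 mouse, red for Drp1_KO and blue for Drp1_WT, and the grey line is the mean. Dicer1 stands highest at a mean of 19.0 CPM per kb and Ago1 lowest at 0.023, with mouse 1 at 0.

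Between the labels, no member passed the test. Of the 9 members that passed the filter on low counts, 0 passed an adjusted p of 0.05 in edgeR's quasi-likelihood test over 12812 genes, where 0.0156% of all genes did. At an unadjusted p of 0.05 the count was again 0, where 9.69% of all genes passed (4.89% higher and 4.81% lower in Drp1_KO), and the mice of the labels overlapped for every member, where 2.56% of genes had no overlap. DESeq2 called 0 members (0.276% of its genes) and limma-voom on single oocytes 0 (0.0702%). The log2 differences, Drp1_KO minus Drp1_WT, ran from -0.41 to 0.06 with a median of -0.18, against -0.0032 over all genes tested; 3 were positive and 6 negative. With 10 members this is a description. Ago1 did not pass the filter and was not tested.

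**Figure D2:**
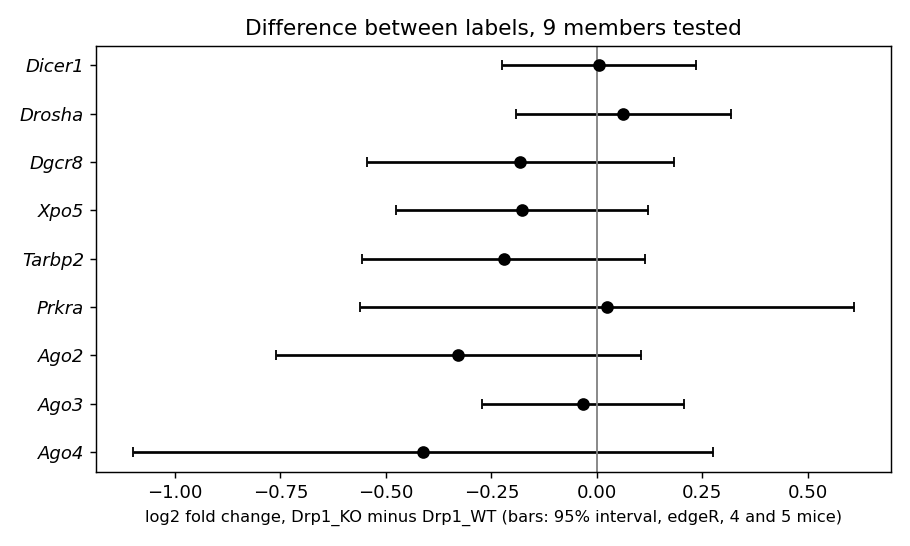
Log2 fold change of the 9 tested members, Drp1_KO minus Drp1_WT, with 95% intervals from edgeR on counts summed for each of 4 and 5 mice. Every interval holds 0; that of Dicer1 is the narrowest, from -0.22 to 0.24, and that of Ago4 the widest, from -1.10 to 0.28.

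Neither Drosha nor Dgcr8, which start microRNA processing in the nucleus, passed the test. Drosha measured 54.8, 71.5, 73.7 and 57.2 CPM in mice a, b, c and d, and 63.3, 59.97, 64.5, 64.2 and 55.9 CPM in mice 1 to 5. The Drp1_KO mice lay on either side of the Drp1_WT mice, with b and c above all of them and a below. The log2 difference was 0.06 (SE 0.12, 95% interval -0.19 to 0.32, adjusted p = 0.855). Dgcr8 measured 4.54, 5.46, 4.41 and 4.68 CPM in mice a to d, and 6.37, 5.62, 5.10, 5.34 and 4.69 CPM in mice 1 to 5. Its values were low and overlapped, and its log2 difference was -0.18 (SE 0.17, 95% interval -0.55 to 0.18, adjusted p = 0.703). It had 10 to 52 counts per oocyte. At the mean count the counting error was 18.3%, beside an observed coefficient of variation of 37.3%.

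Xpo5, the export factor, measured 28.9, 27.7, 28.3 and 22.9 CPM in mice a to d. In mice 1 to 5 it measured 37.5, 31.5, 27.1, 31.4 and 25.2 CPM. Mouse d was lowest and mouse 1 highest, and the log2 difference of -0.18 (SE 0.14, 95% interval -0.48 to 0.12) had an adjusted p of 0.643.

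Dicer1, the enzyme shared by the microRNA and small interfering RNA branches, had nearly the same mean under both labels. Its level was 315, 314, 333 and 316 CPM in mice a to d, and 319, 355, 344, 315 and 259.6 CPM in mice 1 to 5. With TMM factors the 4 Drp1_KO mice lay close together inside the range of the Drp1_WT mice, of which mouse 5 was lowest. Without the factors they lay farther apart, with 9070 counts of 26320312 in mouse c and 6422 of 22756289 in mouse d. The means were 319.6 ± 9.26 CPM (SD, n = 4) and 318 ± 36.8 CPM (SD, n = 5). The log2 difference was 0.0052 (SE 0.11, adjusted p = 0.99), and its 95% interval of -0.22 to 0.24 holds no 1.5-fold change in either direction. In single oocytes Dicer1 ran from 272 to 376 CPM under Drp1_KO (median 308) and from 207.5 to 405 CPM under Drp1_WT (median 339). The lowest values were tubes 29 and 30 of mouse 5, at 215 and 207.5 CPM. Without mouse 5 the log2 difference was -0.0599.

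The Dicer1 partners Tarbp2 and Prkra were more variable. Tarbp2 measured 60.8, 45.2, 61.9 and 45.3 CPM in mice a to d, and 79.9, 52, 58.3, 67.1 and 53.5 CPM in mice 1 to 5. Mice b and d were below all Drp1_WT mice, a and c inside their range, and the log2 difference was -0.22 (SE 0.16, 95% interval -0.56 to 0.11, adjusted p = 0.614). The value of mouse b includes KO tube 10, which gave 13 of its 1300 Tarbp2 counts but 4893482 of its 30000965 total counts. Tarbp2 moved with the depth of the library. Leaving aside KO tube 10, its lowest values were 29.6 CPM in tube 4 of mouse a and 30.5 CPM in tube 11 of mouse c, the 2 libraries with the fewest counts (3179955 and 3178509). Over those 35 oocytes its log2 level and log2 total had a Pearson correlation of 0.48, and of 0.67 within mice; the part of depth in the difference between labels was not tested. Prkra averaged 2.44 ± 0.55 CPM (SD, n = 4) under Drp1_KO, and 2.38 ± 0.71 CPM (SD, n = 5) under Drp1_WT, and had 2 to 29 counts per oocyte. Its log2 difference of 0.02 (SE 0.27) carried a 95% interval of -0.56 to 0.61.

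Among the Argonautes, Ago3 was steady, Ago2 varied, and Ago4 and Ago1 were near the limit of detection. Ago3 measured 89.8, 84.7, 97.5 and 106 CPM in mice a to d, and 84.6, 89.8, 102, 98.7 and 108 CPM in mice 1 to 5. The ranges nearly coincided, and the log2 difference was -0.033 (SE 0.11, 95% interval -0.27 to 0.21, adjusted p = 0.927). Ago4 measured 0.829, 1.29, 0.809 and 0.935 CPM in mice a to d, and 1.05, 1.82, 0.822, 1.47 and 1.33 CPM in mice 1 to 5. Its counts of at most 16 per oocyte left a 95% interval of -1.10 to 0.28 around a log2 difference of -0.41 (adjusted p = 0.642). Ago1 had counts in 21 of 36 oocytes, 13 labelled Drp1_KO and 8 labelled Drp1_WT, and never more than 6. Summed by mouse it had 10, 5, 3 and 4 counts in a to d, and 0, 6, 6, 2 and 4 counts in 1 to 5, so no difference was detectable at this depth.

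**Figure D3:**
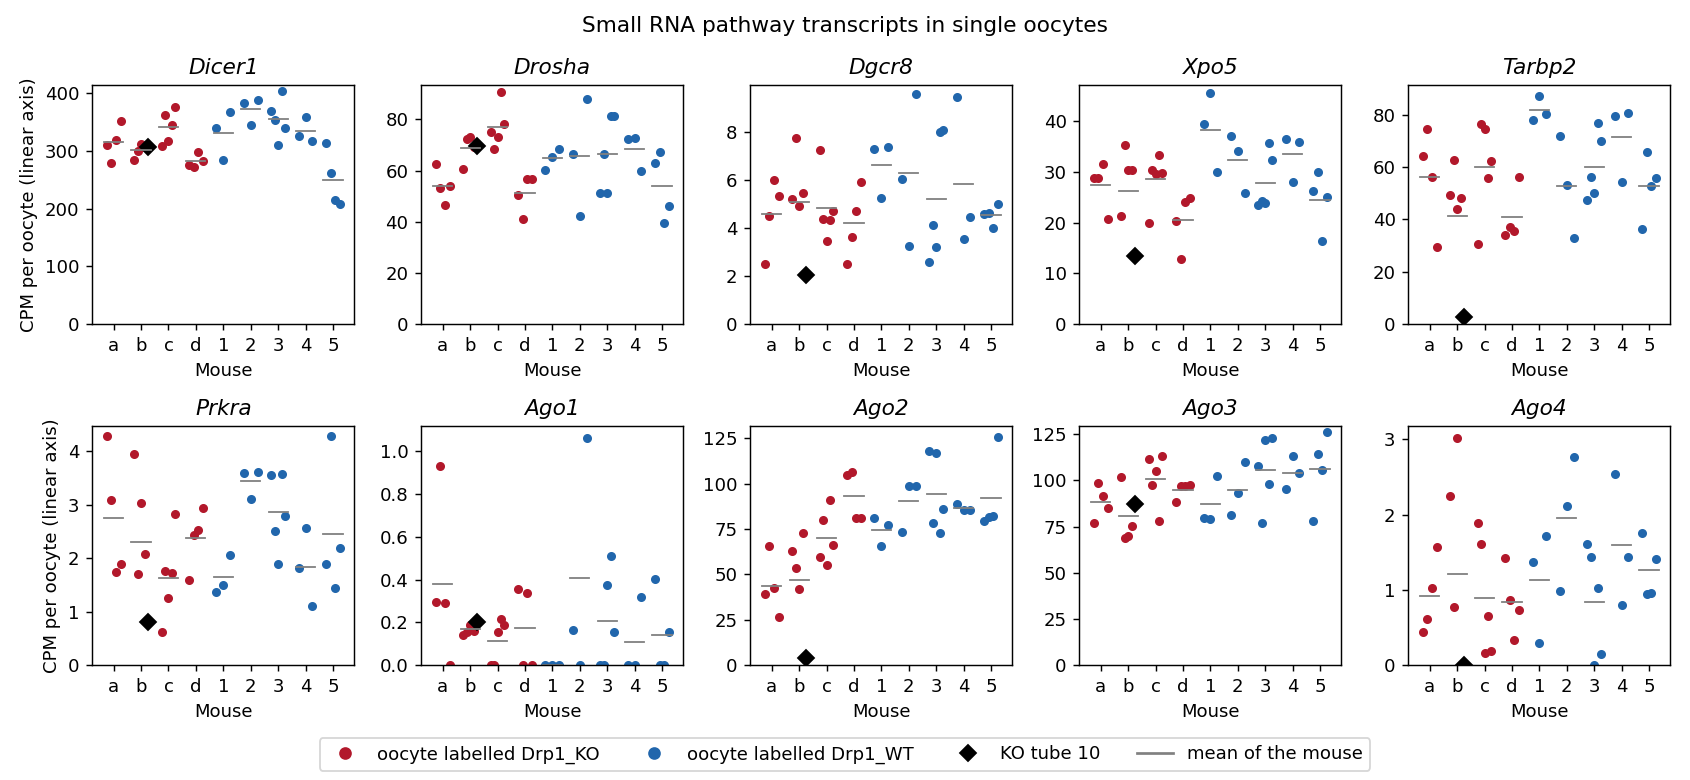
CPM of each member in the 36 oocytes on linear axes that start at 0, arranged by mouse (a to d, Drp1_KO, red; 1 to 5, Drp1_WT, blue), with the mean of each mouse in grey and KO tube 10 as a black diamond. Ago2 is low in mice a and b and high in d, and KO tube 10 lies at the foot of the Ago2 and Tarbp2 panels but inside the others' range for Dicer1, Drosha and Ago3.

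Ago2 had the largest spread among mice of the well-detected members. It measured 46.6 CPM in mouse a, 51.8 in b, 68.3 in c and 104.6 in d, and 71.9, 86.4, 91.0, 81.6 and 94.6 CPM in mice 1 to 5. Mice a, b and c lay below every Drp1_WT mouse. With TMM factors mouse d lay above every Drp1_WT mouse, but its factor was the lowest (0.893, against 1.04 in mouse 3). Mouse d had 2126 Ago2 counts of 22756289 and mouse 3 had 2768 of 29379458, so without the factors mouse d lay below mouse 3. The means were 67.8 ± 26.2 CPM (SD, n = 4) and 85.1 ± 8.86 CPM (SD, n = 5), a log2 difference of -0.33 (SE 0.20, 95% interval -0.76 to 0.10) with an adjusted p of 0.571 in edgeR. On the log2 mouse values an exact permutation test, two-sided, gave p = 0.175. Over single oocytes Ago2 ran from 3.88 to 107 CPM under Drp1_KO (median 64.4) and from 65.5 to 126 CPM under Drp1_WT (median 83.7), so the lowest Drp1_WT oocyte was above the Drp1_KO median.

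The size of the Ago2 difference turned in part on mouse d, whose oocytes hold tubes 27 to 30. It also moved with all mice kept, to -0.57 with limma-voom on oocytes (adjusted p = 0.438). With tube set as a term in edgeR it was -0.41 (adjusted p = 0.292). In tubes 1 to 15 the oocytes labelled Drp1_KO ran from 3.88 to 91.1 CPM (median 57.3) and those labelled Drp1_WT from 65.5 to 118 CPM (median 85.4). In tubes 27 to 30 the ranges were 81.0 to 107 CPM and 79.5 to 126 CPM. Oocyte ranges of the labels thus overlapped in both tube sets. Without mouse d, edgeR gave a log2 difference of -0.61 with an unadjusted p of 0.0010 and an adjusted p of 0.452, where 6.51% of all genes had an unadjusted p under 0.05. In tubes 1 to 15 alone it gave -0.57 (unadjusted p = 0.0022, adjusted p = 0.386), where 0.031% of genes passed the adjusted threshold, 10.3% of genes had an unadjusted p under 0.05 and 9.34% had no overlap between mice. The exact permutation test within tubes 1 to 15 gave p = 0.0571, the smallest that 3 against 4 mice allow. Ago2 was the only member tested by permutation, picked for its split between mice. With mice a to c below every Drp1_WT mouse, this p was fixed in advance and adds no support. Without mouse a the difference was -0.19 and without mouse b -0.22. An interaction of label with tube set, added after these values were seen, put the change of the difference between the sets at 0.72 (SE 0.31) with an unadjusted p of 0.036 and an adjusted p of 0.999; 2.47% of genes had an unadjusted p under 0.05. Since tubes 27 to 30 hold 1 mouse of each label, tube set and mouse cannot be told apart.

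**Figure D4:**
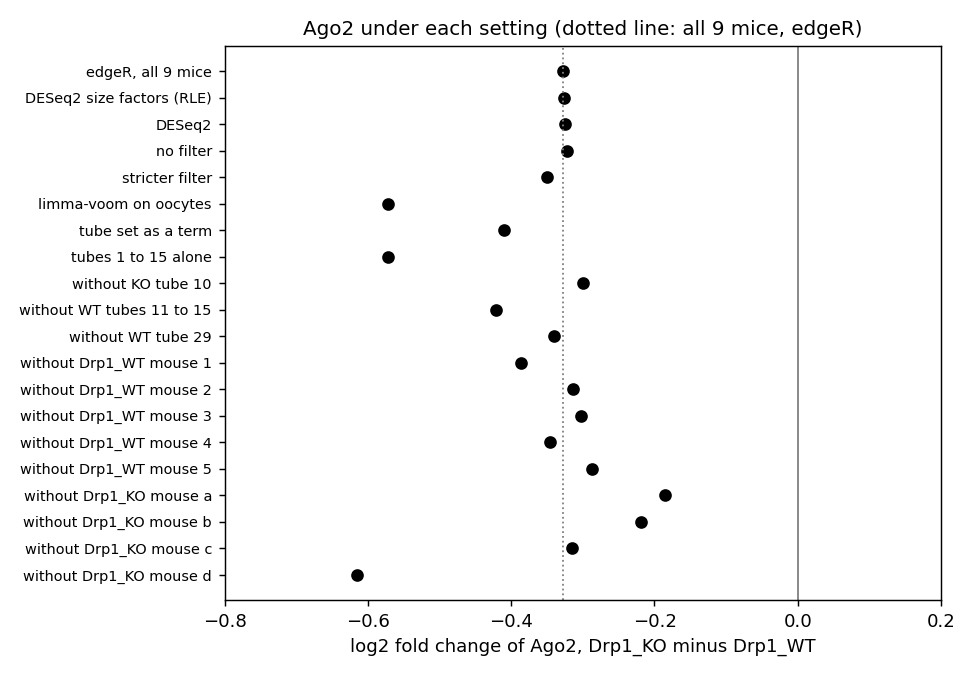
Log2 fold change of Ago2, Drp1_KO minus Drp1_WT, with all 9 mice and under each alternative setting; each point is 1 fit and the dotted line marks the value with all 9 mice, -0.33. All points lie below 0, from -0.61 without mouse d to -0.19 without mouse a.

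In KO tube 10 some members were low and others were not. Its Ago2 was 3.88 CPM (19 counts), against 26.4 to 126 CPM in the other 35 oocytes, 16.96-fold below the median of the other Drp1_KO oocytes. Its Tarbp2 was 2.66 CPM (13 counts), against 29.6 to 87.1 CPM elsewhere, 21.1-fold below that median. Dgcr8 was also lowest there, at 2.04 CPM, and Xpo5 (13.5 CPM) and Prkra (0.817 CPM) were each lower in 1 other oocyte. By contrast Dicer1 (306 CPM), Drosha (69.7 CPM) and Ago3 (87.3 CPM) lay well inside the range of the others. Low values were common in this library. Of 11512 genes with a mean of at least 1 CPM, 46.76% were below all other oocytes and 15.002% were above all. Of the 10 members, Dgcr8, Tarbp2 and Ago2 were below all. Over 10-fold below the median of the other Drp1_KO oocytes were 23.332% of those genes, and Tarbp2 and Ago2 among the members. Low values there were thus not particular to the pathway. The immune markers Lyz2 (440 CPM), Cd68 (67.8 CPM) and Adgre1 (34.5 CPM) were high in it, Ptprc was at 1.23 CPM and Cd14 at 0, while Mos was at 2.45 and Figla at 0 among the oocyte markers; their part in the member values was not tested. Without this library the log2 differences were -0.30 for Ago2 and -0.19 for Tarbp2.

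Across oocytes the members did not vary as 1 block. The coefficient of variation was 13.97% for Dicer1, 16.2% for Ago3 and 20.3% for Drosha, and 33.5% for Ago2 and 33.2% for Tarbp2, of which KO tube 10 made part (28.9% and 28.6% without it). For the same genes counting error alone, at each gene's mean count, gives 2.31% to 5.45%. On the log2 scale the SD of mouse means of Ago2 was 0.53 and that within mice 0.69, and without KO tube 10 their order turned, to 0.39 and 0.31. For Tarbp2 they were 0.42 and 0.76, and without that library 0.29 and 0.40. Without KO tube 10, Xpo5 and Tarbp2 had a Pearson correlation of 0.71 over 35 oocytes (0.62 within mice) and Dicer1 and Drosha one of 0.57 (0.50 within mice). Ago2 and Tarbp2 had 0.70 with that library and 0.043 without it. These oocytes share mice, and Xpo5 also moved with library depth (0.41 within mice), so the correlations are descriptions.

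The genes whose log2 CPM was most like that of Dicer1 over the 36 oocytes, among 7324 genes of at least 10 CPM, were Lmo7 (Pearson correlation 0.82), Usp9x (0.79) and Supt16 (0.75). Without KO tube 10 they were Lmo7 (0.84), Usp9x (0.80) and Scyl2 (0.79). For Ago2 they were Gins2, Fbxl22 and Pde6d (each 0.90), and without KO tube 10 Vdac2 (0.78), Klf13 (0.74) and Fbxl22 (0.72), so that for Ago2 1 gene of 3 was common to both. These are descriptions, with no test.

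Around the core, 4 further groups of 68 genes in all were read from the same fit. Of 24 cofactors of microRNA processing and turnover, all tested, 16 had positive and 8 negative log2 differences, with a median of 0.06. The adjusted threshold was passed by 1 of them, higher in Drp1_KO, where 0.0156% of all genes passed. That gene was Eri1, an exonuclease that trims structured RNA ends and degrades small interfering RNAs, which was already known to differ from earlier work on these data. It measured 102, 114, 84.0 and 107 CPM in mice a to d, and 55.3, 40.1, 42.2, 54.96 and 50.3 CPM in mice 1 to 5. All Drp1_KO mice were above all Drp1_WT mice, and the log2 difference was 1.07 (SE 0.13, adjusted p = 0.0117). Eri1 lies on chromosome 8, 91601 bases from Mfhas1, the only other gene called (log2 difference 3.05, adjusted p = 0.00389). In the library labelled WT tube 29, Eri1 was at 83.7 CPM and Mfhas1 at 20.8 CPM, against at most 61.7 and 5.47 CPM in the other WT libraries. Leaving out mouse 2, 3, a or b took the adjusted p of Eri1 to between 0.0566 and 0.085, with log2 differences of 1.01 to 1.07. The next smallest p in the group were those of Tent2, a poly(A) polymerase (37.3 ± 4.45 against 31.1 ± 0.61 CPM), and Lin28b, a let-7 binding protein (17.3 ± 2.29 against 14.2 ± 0.78 CPM; SD over 4 and 5 mice), neither past the adjusted threshold. Without KO tube 10 their log2 differences went from 0.27 to 0.14 and from 0.28 to 0.17.

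The other groups held no call, where 0.0156% of all genes were called, so a count of 0 says little about groups of this size. Of 19 loading and silencing partners of the Argonautes, 17 were tested, 0 passed, and the median log2 difference was -0.07. The smallest p were those of 1 Hsp90 gene and of co-chaperones of Hsp90, which load Argonautes: Hsp90ab1 at 272 ± 36.1 against 335 ± 34.4 CPM, Ptges3 at 178 ± 36.5 against 131 ± 29.4 CPM and Fkbp4 at 17.02 ± 3.52 against 23.4 ± 6.22 CPM (SD over 4 and 5 mice). They did not share a direction, and without the libraries labelled WT tubes 11 to 15 the log2 difference of Fkbp4 went from -0.45 to -0.20. The other Hsp90 gene of the list, Hsp90aa1, was more abundant and went the opposite way to Hsp90ab1. It was at 2113 ± 223.5 against 1775 ± 206.3 CPM (SD over 4 and 5 mice), a log2 difference of 0.25. Of 21 genes of the piRNA pathway, the other germline small RNA system, 20 were tested and 0 passed, with a median of -0.0097; its 3 smallest p were those of Tdrd5, a Tudor domain protein, with a log2 difference of -0.34, Tdrd9, a helicase, with -0.23, and Rnf17, with 0.14; without the libraries labelled WT tubes 11 to 15 they were -0.19, -0.19 and 0.058. Of 4 transcripts that pseudogene-derived small interfering RNAs are reported to match in mouse oocytes, 4 were tested and 0 passed. Ppp4r1 was at 9.54 ± 1.91 against 13.7 ± 4.49 CPM, Rangap1 at 4.49 ± 1.75 against 6.51 ± 1.77 CPM and Kif4 at 287 ± 16.3 against 289.5 ± 22.0 CPM (SD over 4 and 5 mice). The fourth, Pdzd11, had a log2 difference of -0.0015, so the median of -0.27 for the 4, beside -0.0032 over all genes, rests on Ppp4r1 (-0.52) and Rangap1 (-0.53). Without the libraries labelled WT tubes 11 to 15 these were -0.21 and -0.11.

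Markers of the oocyte and of other cells were read beside these groups. Of them 0 passed the adjusted threshold, where 0.0156% of all genes did. Of 12 oocyte markers the smallest p were those of Zp1 (log2 difference -0.42), Oosp1 (0.37) and Mos (-0.13). Among granulosa and cumulus markers they were those of Cyp11a1 (-1.70), Cyp19a1 (0.24) and Hsd3b1 (-1.31), and the 16 markers summed to 84.1 to 153 CPM under Drp1_KO and 95.8 to 158 CPM under Drp1_WT. Cyp19a1 (67.45 against 57.13 CPM) and Nr5a2 (34.2 against 31.8 CPM) made most of these sums. Of the 10 granulosa and cumulus markers tested, 3 had positive and 7 negative log2 differences, with a median of -0.46. Among immune markers Cd68 stood at 1.39 (0.78 without KO tube 10) and Csf1r at 0.17. Among stromal, endothelial and epithelial markers Krt8 stood at -1.84, Kdr at -0.97 and Dcn at -0.72 (0.17 without mouse 5). These last 3 were low: Krt8 at 0.43 against 1.58 CPM, Kdr at 0.91 against 1.81 CPM and Dcn at 1.57 against 2.55 CPM. Pecam1, the best detected of that list, was at 37.14 against 37.65 CPM, a log2 difference of -0.018. The part of all these markers in the values of the members was not tested.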

How the data were processed

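Single-oocyte RNA of 36 oocytes was measured by SMART-seq, with SMARTer Ultra Low Input cDNA and Nextera XT libraries, per the labels' protocols. The authors deposited whole-number counts per Ensembl gene. Tools in the submitters' processing notes are Picard, STAR, featureCounts and Subread 1.5.2, with the build GRCm38; for strand, PCR copies and reads with several matches the setting is not given in the sources used here. Genes were named from GENCODE M21 (21876 of 21968 IDs matched).

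The mouse was the replicate: its oocytes' counts were added up and tested with edgeR 4.0.16 (R 4.3.3): TMM factors, filterByExpr by label (12812 genes left), robust quasi-likelihood, and Benjamini-Hochberg adjustment over all genes at 0.05. P-values measure the spread between these mice. Oocyte values are CPM of the oocyte's total and mouse values CPM with TMM factors (0.893 to 1.06). Oocyte correlations use log2(CPM + 1). Mouse values of Dnm1l and Ago2 were compared by exact permutation (scipy 1.17.1). Alternatives were DESeq2 1.42.0, its size factors in edgeR, other filters, limma-voom (limma 3.58.1) on oocytes (mouse as random effect), tube set as a term or tubes 1 to 15 alone, and libraries or mice left out. The scripts were tested on simulated counts.

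The members and lists were chosen with earlier results of these data known. Named genes were the members, Dnm1l, the 3 smallest p in each list (2 where only 2 were tested) and the 3 genes most correlated with Dicer1 and Ago2. Mfhas1, Hsp90aa1, Pecam1, Scyl2, Vdac2, Klf13 and the markers cited in KO tube 10 were named after their values were seen.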

Additional observations from a re-analysis of the deposited data

Results flagged for a closer look

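In 4 of 66 groups of mice examined, 1 mouse lay farther from the rest than a gap test at the 95% level allows, and chance alone picks about 1 in 20 such groups. With TMM factors Dicer1 was at 333.4 CPM in mouse c, while the other Drp1_KO mice lay between 314.1 and 316.0 CPM. Without the factors those other mice lay farther apart. Tdrd9, a helicase of the piRNA pathway, was at 13.63 CPM in mouse d, against 17.25 to 17.75 CPM in the other Drp1_KO mice. Csf1r, a macrophage receptor, was at 0.6109 CPM in mouse a, against 1.329 to 1.434 CPM. Dcn, a stromal proteoglycan, was at 7.193 CPM in mouse 5, against 1.31 to 1.446 CPM in the other Drp1_WT mice.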

How the results depend on the processing

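Members called numbered 0 under all 19 alternatives. Over all genes the count of calls was 2, and it was 38 with DESeq2, 9 with limma-voom on oocytes, 4 in tubes 1 to 15 alone and 1 to 3 with each mouse left out. Some differences changed sign, most of them near 0 and 1 not (Dcn, -0.72 with all mice). With each mouse left out, the range was -0.0599 to 0.051 for Dicer1, -0.0021 to 0.132 for Drosha, -0.0879 to 0.1822 for Prkra, -0.0935 to 0.0166 for Ago3, -0.0437 to 0.0275 for Kif4 and -0.9081 to 0.173 for Dcn. Dicer1 went to -0.0121 with the stricter filter, -0.0519 in tubes 1 to 15, -0.0183 without KO tube 10, -0.0254 without WT tubes 11 to 15 and -0.0066 without WT tube 29. Prkra went to -0.0408 with limma-voom, -0.0011 in tubes 1 to 15, -0.0744 without WT tubes 11 to 15 and -0.0133 without WT tube 29. Kif4 went to 0.0149 without KO tube 10 and 0.0117 without WT tubes 11 to 15. Csf1r went to -0.0448 with limma-voom and -0.0632 without KO tube 10. The cause of these changes was not tested. No paired analysis was possible because the mice of one label carry letters and those of the other numbers, which name no pairs. The other 150 of 168 values of the members kept their direction and their side of the threshold. Depth limits Ago1, Ago4, Prkra and Dgcr8 most.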
